A study of Mus musculus with 24 samples.

Results

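The 8 genes described here encode caspases and the proteins that start, hold back or follow caspase activation: Apaf1, Casp9, Casp2, Casp8, Casp6, Xiap, Diablo and Endog. They were taken by symbol from the 37229 gene symbols of the count table, which held all 8. Of these, 7 were among the 15875 genes that passed the low-count filter, and the same 7 were in the authors' TPM table. Casp8 was in neither, so it is described without a test. The material was 24 single mouse embryos (ICR, obtained through in vitro fertilization), whose RNA was sequenced after Smart-seq2, which copies full-length poly(A) RNA. The groups were 6 split blastocysts, 3 control blastocysts, 6 split morulae, 5 control morulae and 4 control 8-cell embryos. Split embryos each grew from 1 blastomere of a late two-cell embryo, parted by micromanipulation after a bath in biopsy medium and then cultured singly in modified sodium hyaluronate gel. Control embryos stayed whole and were cultured in parallel under conditions the labels call matched. Each split group held 3 pairs of sisters from the same two-cell embryo, and the sisters' counts were summed, so a pair was 1 unit and 18 units entered the tests. No batch, litter or sex is given in the labels, and nothing says that control embryos of a group came from separate fertilizations. The p-values therefore speak of the spread among the embryos at hand, which may be technical.

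In the mitochondrial route of apoptosis, cytochrome c that leaks from mitochondria binds APAF1, which assembles into the apoptosome and activates the initiator caspase-9. Caspase-9 then cleaves executioner caspases. XIAP binds and blocks caspases, and DIABLO (also called SMAC), released from the same mitochondria, frees caspases from it. Caspase-8 starts the separate death receptor route, caspase-2 is an initiator activated on the PIDDosome after DNA damage or failed division, and endonuclease G is a mitochondrial nuclease that can enter the nucleus in dying cells. Caspases are made as inactive precursors, so a transcript level is not a measure of their activity. Apoptotic cells are a known feature of the mammalian blastocyst, mainly in its inner cell mass.

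Libraries held 13.4 to 25.2 M counted reads in split blastocysts, 11.3 to 12.7 M in control blastocysts, 14.1 to 18.9 M in split morulae, 13.9 to 19 M in control morulae and 26.3 to 38.5 M in 8-cell embryos. The sums of the trophectoderm and cleavage stage markers followed the labelled stages. The cleavage stage list (Obox6, Trim43b, Dppa3) summed to 24000 to 33400 CPM in 8-cell embryos and 2760 to 3850 CPM in control blastocysts. The 3 inner cell mass genes listed (Sox2, Nanog, Fgf4) did not rise in sum from morula to blastocyst. They summed to 271 to 562 CPM in control morulae, 222 to 405 CPM in control and 244 to 334 CPM in split blastocysts. The 6 trophectoderm genes listed (Cdx2, Eomes, Gata3, Gata2, Krt8, Krt18) summed to 4600 to 5970 CPM in split blastocysts, 1760 to 2700 CPM in control blastocysts and 3.51 to 32 CPM in 8-cell embryos. Between the blastocyst groups the list did not move as 1. The means were 1770 against 610 CPM for Krt8 and 2600 against 824 CPM for Krt18 in split and control blastocysts, but 29.6 against 56.3 CPM for Eomes, 20.6 against 29.1 CPM for Gata2, 806 against 754 CPM for Gata3 and 24.1 against 16.4 CPM for Cdx2. CPM here is a read count scaled to the size of its library. Of 8 cumulus cell markers at most 2 had any read in a group, with sums of at most 1.04 CPM, and 6 fibroblast markers summed to at most 8.29 CPM. Of 6 blood markers Ptprc and Lyz2 had no read in any group, and the sum of the list, led by Hba-a1 and Cd74, reached 122 CPM in split morulae. Mitochondrially encoded genes made up 1.69% ± 0.572 of counts in split blastocysts against 4.2% ± 0.691 in control blastocysts, and 2.59% ± 0.504 in split morulae against 3.99% ± 0.852 in control morulae (SD over embryos). The part of these differences in the results below was not tested.

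Per transcript length, Casp6 and Endog were the most abundant members in every group, and Apaf1, Casp9 and Casp2 were the least abundant outside the 8-cell stage. In control embryos Casp6 stood at 57.3 ± 22 TPM at the 8-cell stage, 47 ± 14.7 TPM at the morula and 25.5 ± 1.37 TPM at the blastocyst (SD, n = 4, 5 and 3). Endog followed with 36.9 ± 12.4, 17.2 ± 8.56 and 20.9 ± 16.4 TPM at these stages. Xiap was at 17.3 ± 6.59, 6.26 ± 3.41 and 18.3 ± 5.16 TPM, and Diablo at 5.58 ± 1.42, 4.93 ± 2.38 and 8.73 ± 1.11 TPM. The initiator Casp9 was at 0.192 ± 0.26 TPM in 8-cell embryos, 0.757 ± 1.06 TPM in control morulae and 6.63 ± 3.4 TPM in control blastocysts. The scaffold Apaf1, which works with caspase-9 in 1 complex, had the opposite end high, at 11.9 ± 6.11, 0.6 ± 0.732 and 4.07 ± 3.04 TPM. By mean, Apaf1 was thus lowest in control morulae and Casp9 in 8-cell embryos. Casp9 units overlapped between these 2 groups and did not differ by edgeR's quasi-likelihood test (adjusted p = 0.366), so its lowest group is not settled.

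**Figure D1:**
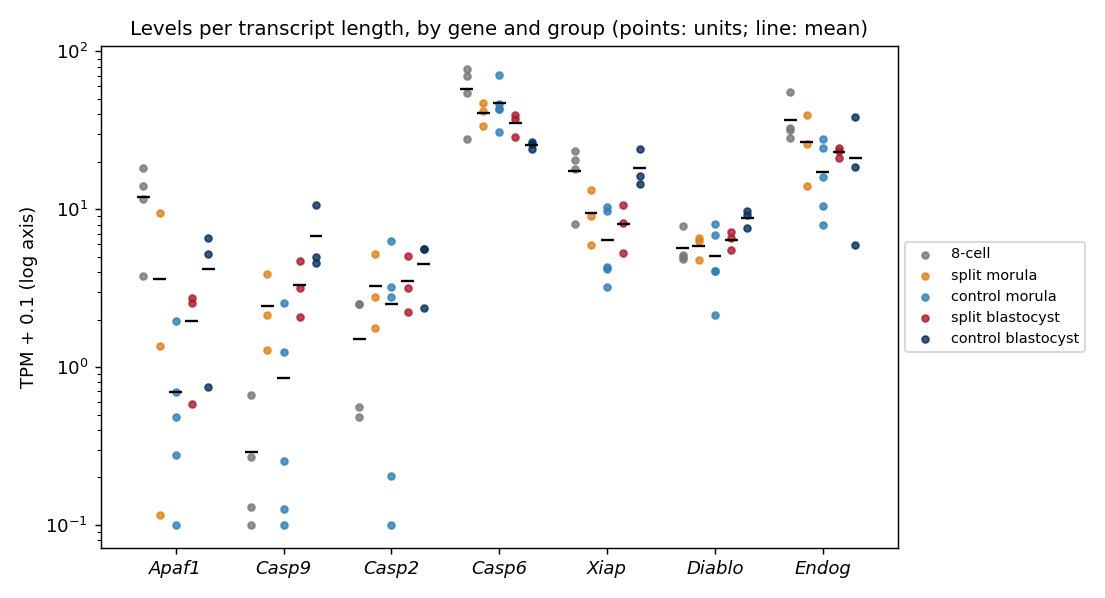
Levels per transcript length of the 7 members in the deposited TPM table. The vertical axis is TPM + 0.1 on a log scale, points are units (control embryos or the mean of 2 sisters) and lines are group means. Casp6 has the highest mean in every group, and Apaf1, Casp9 and Casp2 each reach 0 TPM in at least 1 control morula.

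Apaf1 fell between the 8-cell stage and the morula by the largest factor among the members. Its units had 1.47, 2.52, 0.692, 0 and 7.24 CPM in control morulae, against 16 (embryo 1), 49.2, 78 and 53.6 CPM in 8-cell embryos. All 5 morulae lay below all 4 8-cell embryos. The mean was 2.38 ± 2.87 CPM in control morulae and 49.2 ± 25.5 CPM in 8-cell embryos, a log2 fold change of -4.36 ± 1.27 (edgeR's quasi-likelihood test, adjusted p = 0.0169), or 20.5-fold lower. In a whole embryo, fewer cells with a transcript and less transcript per cell cannot be told apart. Without any filter on low counts the adjusted p was 0.0568, and in each of the other 21 settings tried the gene was called.

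Xiap, the caspase inhibitor, fell over the same step. Control morulae had 12.6, 42.4, 16.9, 17.9 and 42.3 CPM, against 81.4, 90.5, 36 and 93.3 CPM in 8-cell embryos. One 8-cell embryo, with 36 CPM, lay within the range of the morulae, and the other 3 lay above it. The mean was 26.4 ± 14.7 CPM in morulae and 75.3 ± 26.7 CPM in 8-cell embryos (log2 -1.51 ± 0.4, adjusted p = 0.0078, 2.85-fold lower). Xiap was called in all 22 settings of this comparison.

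Apaf1 and Xiap were thus 2 of 7 tested members called in control morulae against 8-cell embryos, both lower, where 24.9% of all 15875 tested genes were called, 14.3% higher and 10.7% lower. The median log2 fold change was -0.33 over the 7 members and 0.09 over all genes. Endog had 12.6, 5.17, 11.2, 7.59 and 3.65 CPM in control morulae against 14.4, 15.9, 16.4 and 25 CPM in 8-cell embryos. These values did not overlap either, but the fitted change of -1.15 ± 0.61 did not pass (adjusted p = 0.165), except with DESeq2 (adjusted p = 0.0495). The share of all tested genes without overlap was not counted. Endog shares exonic sequence with Spout1 on the other strand in the GENCODE M21 annotation, and the strand setting of the counting was not stated, so its counts are uncertain. Casp6 (log2 -0.33 ± 0.27), Diablo (-0.24 ± 0.45), Casp2 (0.65 ± 1.11) and Casp9 (1.87 ± 1.44) did not pass.

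The promoters of the 2 falling genes are shown beside that of Casp8, the member with hardly any reads, so that their letters can be compared. Each line gives the 250 bases before an annotated start from RefSeq (GRCm38.p6, a build older than the GRCm39 named for the counts), 5′ to 3′ on the gene's strand, with the GC box GGGCGG or its complement CCGCCC in capitals. Apaf1 is at chr10:91082744-91082993 (minus strand), Xiap at chrX:42068148-42068397 (plus strand, the first of 3 starts listed) and Casp8 at chr1:58802252-58802501 (plus strand).
Apaf1: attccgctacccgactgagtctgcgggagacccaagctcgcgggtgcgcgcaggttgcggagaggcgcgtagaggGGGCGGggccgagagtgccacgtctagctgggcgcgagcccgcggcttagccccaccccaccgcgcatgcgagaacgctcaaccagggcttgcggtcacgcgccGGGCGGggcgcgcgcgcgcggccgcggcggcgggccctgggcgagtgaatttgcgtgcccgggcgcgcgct
Xiap: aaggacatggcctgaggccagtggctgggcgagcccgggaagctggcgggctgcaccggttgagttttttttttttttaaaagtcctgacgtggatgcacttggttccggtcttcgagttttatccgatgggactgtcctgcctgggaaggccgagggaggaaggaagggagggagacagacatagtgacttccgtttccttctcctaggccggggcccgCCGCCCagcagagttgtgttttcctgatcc
Casp8: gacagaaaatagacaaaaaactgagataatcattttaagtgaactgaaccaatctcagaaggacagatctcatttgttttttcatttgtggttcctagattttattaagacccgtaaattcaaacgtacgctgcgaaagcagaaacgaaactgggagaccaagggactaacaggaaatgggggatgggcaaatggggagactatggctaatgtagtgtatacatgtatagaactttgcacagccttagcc
Apaf1 held 2 GC boxes and 42 CpG dinucleotides, Xiap 1 and 13, and Casp8 0 and 5. Over all 32851 promoter windows of this length, 32.7% held a GC box on either strand and the median count of CpG was 6. A GC box was also present in the windows of Casp2, Casp6, Casp9, Diablo and Endog, so 7 of 8 members had one before at least 1 listed start (Xiap before 2 of its 3). No TATAAA (or TTTATA) lay in the 3 windows printed, against 12.4% of all windows, and CCAAT or its complement ATTGG lay in that of Casp8 alone among them, against 33.8% of all windows. These matches describe the letters and not a bound site.

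**Figure D2:**
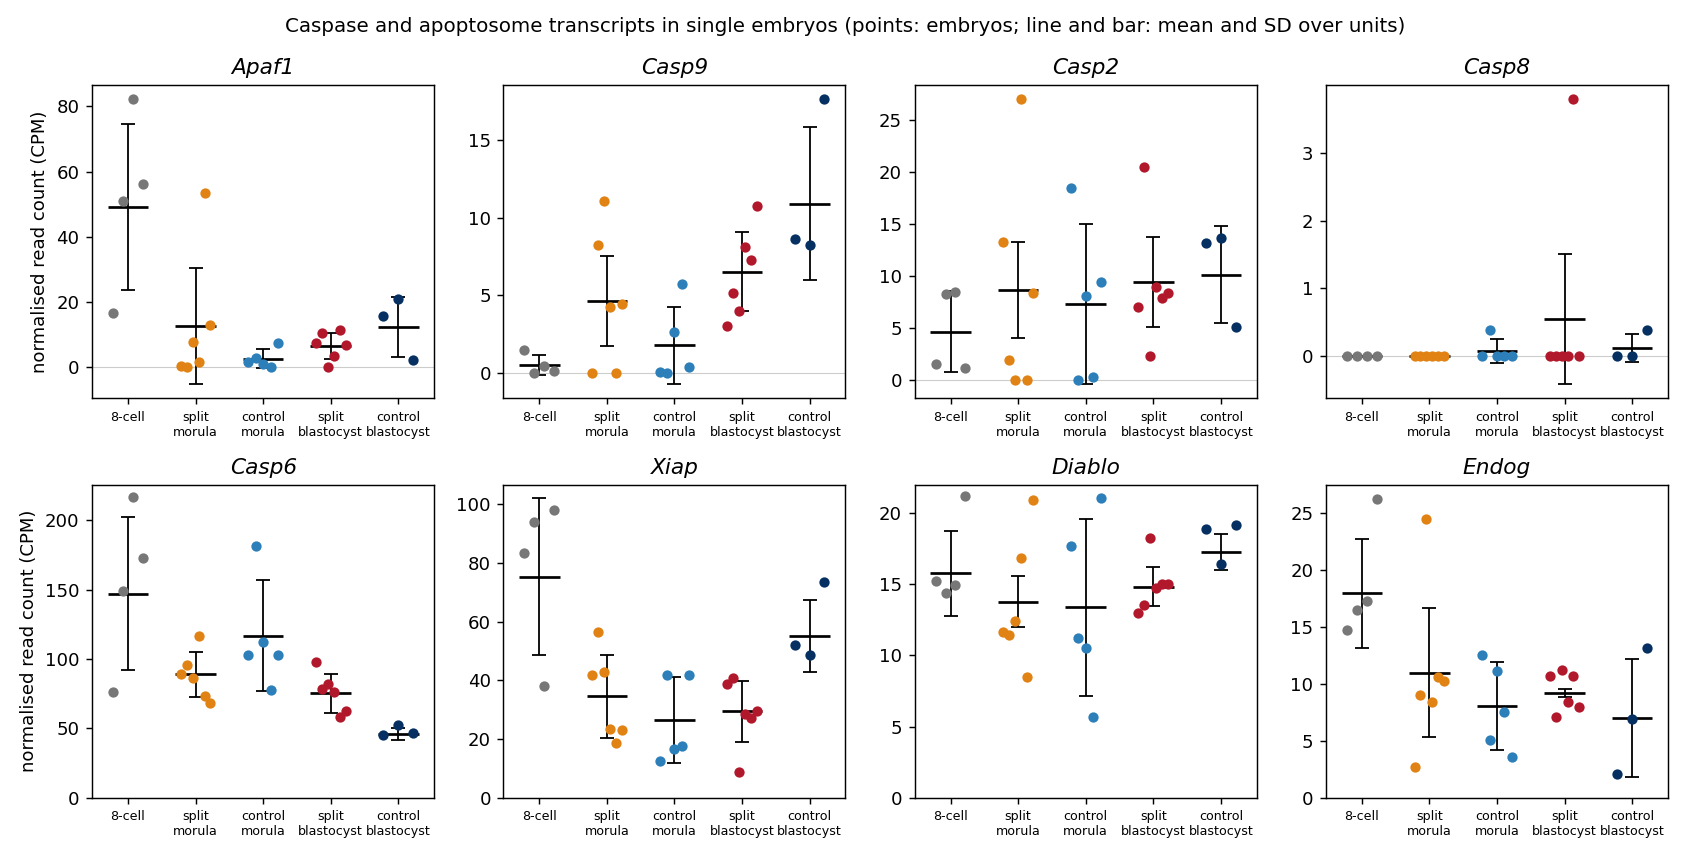
Normalised read counts (CPM, linear axes that differ between panels) of the 8 members in single embryos. Points are embryos, and the line and bar are the mean and SD over units, in which 2 sisters count as 1. Apaf1 and Xiap are highest in 8-cell embryos, Casp6 is lowest in control blastocysts, and Casp8 is at 0 CPM in all but 3 embryos.

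Casp6, an executioner caspase that cleaves nuclear lamins, was the member that fell between the control morula and the control blastocyst. Its units had 43, 50.6 and 43.7 CPM in control blastocysts against 104 (embryo 1), 185, 113, 77.9 and 104 (embryo 5) CPM in control morulae. All blastocysts lay below all morulae. The mean was 45.8 ± 4.2 CPM in blastocysts and 117 ± 40.1 CPM in morulae (log2 -1.35 ± 0.31, adjusted p = 0.00512, 2.55-fold lower). It was the 1 member called of 7, where 10.6% of all tested genes were called, 3.12% higher and 7.46% lower. The median was 0.46 over the members and 0.11 over all genes. On the TPM scale its change was -0.81 ± 0.31 with a median of all genes of 0.37 and an adjusted p of 0.0669, and with limma-voom the adjusted p was 0.108, so the call rests on the scale and the test.

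Casp9 and Xiap were higher in control blastocysts than in control morulae without passing the test on counts. Their units did not overlap between these groups, and the share of all tested genes with such a gap was not counted. Casp9 had 8.19, 7.88 and 16.6 CPM in control blastocysts, against 0.0587, 0, 2.61, 5.76 and 0.347 CPM in control morulae. The blastocysts lay above every morula, and the fitted change was 2.63 ± 1.47 (adjusted p = 0.277). On log2(TPM + 1) it was 2.22 ± 0.46 with limma (adjusted p = 0.0028), a scale on which 76.2% of the 3520 genes called were higher, against 29.5% of 1680 with edgeR. Casp9 exons overlap those of Cela2a and Ctrc, pancreatic protease genes on the other strand. Xiap had 49.4, 46.6 and 69.1 CPM in control blastocysts, above all 5 morulae (log2 1.06 ± 0.42, adjusted p = 0.121; 1.5 ± 0.43 on log2(TPM + 1), adjusted p = 0.0178).

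Apaf1 in control blastocysts was at 14.8, 19.9 and 1.77 CPM, which overlapped the morulae (log2 2.34 ± 1.24, adjusted p = 0.251). Casp2 (0.46 ± 1.18), Diablo (0.37 ± 0.49) and Endog (-0.2 ± 0.67) did not pass. Casp2, the PIDDosome caspase, ranged more widely within control morulae than its group means did across the series, which lay between 4.69 and 10.2 CPM. Its control morulae had 18.7, 0, 8.23, 0.327 and 9.61 CPM, which is 318 reads in 1 embryo and none in another at like depth. Its 8-cell embryos had 1.56, 7.98, 8.09 and 1.15 CPM, and its control blastocysts 12.5, 13.1 and 4.82 CPM.

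Casp8 was close to absent from these libraries. It had 81 reads in 1 split blastocyst, 6 in 1 control blastocyst, 6 in 1 control morula and 0 in the other 21 embryos. No read was seen among the 101.6 M reads of the split morulae or the 126.1 M reads of the 8-cell embryos. A count of 0 allows up to 3 reads, or 0.159 to 0.212 CPM in each split morula and 0.0779 to 0.114 CPM in each 8-cell embryo, by counting error alone. The sister of the split blastocyst with 81 reads (3.79 CPM) had 0. Transcripts of other parts of the death receptor route differed in level. In control blastocysts the receptor gene Fas had 0 CPM and the receptor gene Tnfrsf1a 1.25 TPM, while Tnfrsf10b, also a receptor gene, had 5.13 TPM and the adaptor gene Fadd 19.6 TPM.

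The central question of the series is how embryos from 1 blastomere differ from whole embryos of the same stage. No member was called in split against control morulae or in split against control blastocysts. At the morula 0 of 7 passed with edgeR, where 0.126% of all tested genes were called, 0.0693% higher and 0.0567% lower. An unadjusted p under 0.05 was found for 0 of the 7 and for 2377 of the 15875 tested genes. With DESeq2 and limma 0 passed as well. Of all genes DESeq2 called 3.5%, limma-voom 1.01% and limma on TPM 0.205 to 0.287%. At the blastocyst 0 of 7 passed with edgeR, where 4.74% of all genes were called, 3.42% higher and 1.32% lower. An unadjusted p under 0.05 was found for 1 of the 7 (Casp6) and for 2411 of the 15875 tested genes. DESeq2 (6.13% of all genes called), limma-voom (3.72%) and limma on TPM (4.71 to 6.4%) called 0 members. The member medians were 0.39 at the morula and -0.22 at the blastocyst, and the median of all genes was 0 in both.

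**Figure D3:**
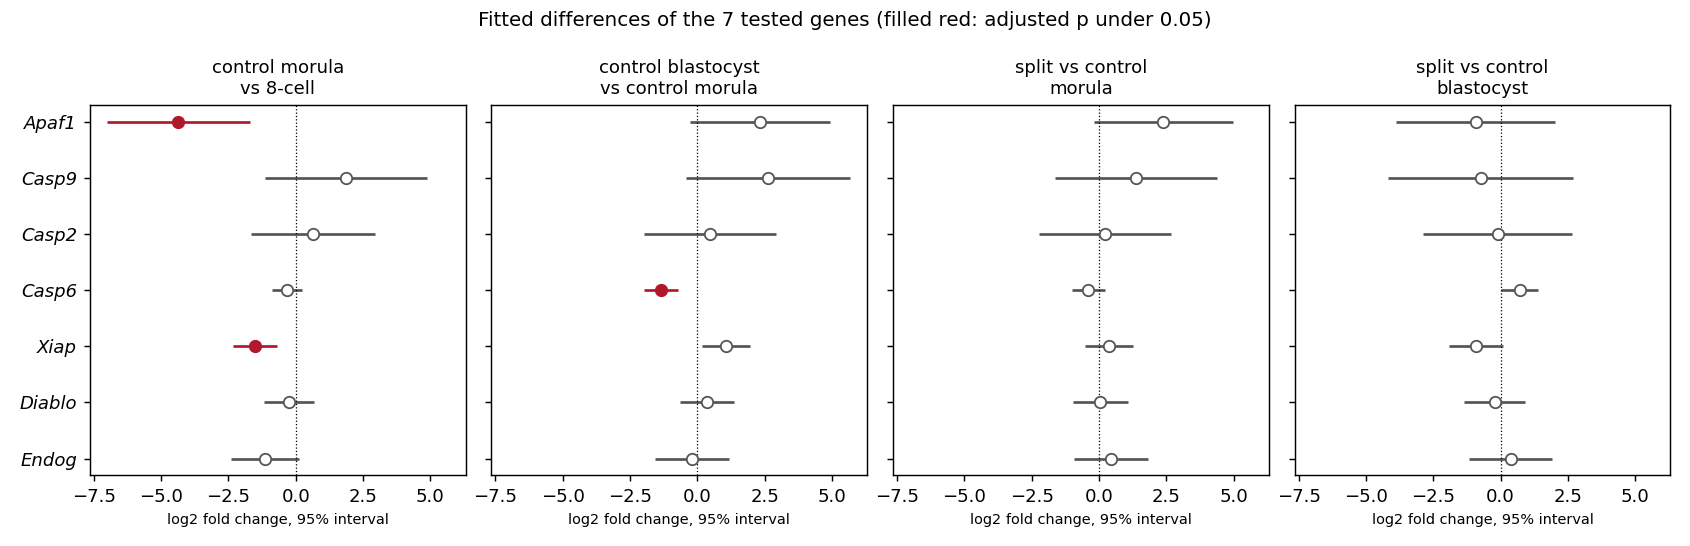
Fitted log2 fold changes of the 7 tested members in 4 comparisons, with 95% intervals as bars. Filled red points passed an adjusted p under 0.05, and a point right of 0 is higher in the group named first above the panel. The calls are Apaf1 and Xiap in control morulae against 8-cell embryos and Casp6 in control blastocysts against control morulae.

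How large a difference the data still allow depended on the gene. For Casp6 the interval of the split effect at the morula was -1.01 to 0.22 on the log2 scale. Split morulae had 93.6, 102 and 71.1 CPM, and the lowest pair lay just below the lowest control morula at 77.9 CPM. For Xiap the interval was -0.5 to 1.28, and it had 49.2, 33.7 and 20.8 CPM in split morulae, against 12.6, 42.4, 16.9, 17.9 and 42.3 CPM in control morulae. These overlapped, with 1 split pair above every control.

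Diablo had 11.7, 14.8 and 14.8 CPM in split morulae, inside the control range of 17.8, 11.4, 10.6, 5.69 and 21.3 CPM (interval -0.98 to 1.06). In the GENCODE M21 annotation Diablo shares exonic sequence with B3gnt4 on the other strand, which leaves the uncertainty named for Endog. It also shares exonic sequence with Gm49027 on its own strand, where no strand setting would separate the reads. Endog had 5.59, 16.8 and 10.5 CPM in split morulae, overlapping the control morulae (interval -0.92 to 1.81). Casp2 had 8.31, 13.4 and 4.26 CPM in split morulae, inside the range of the controls (interval -2.22 to 2.69). Casp9 had 3.76, 7.82 and 2.23 CPM in split morulae, with 1 pair above every control and the others among them (interval -1.62 to 4.4). The intervals of Casp2 and Casp9 thus reach past a 4-fold change.

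Apaf1 had the largest fitted difference at the morula, 2.39 ± 1.24 (interval -0.2 to 4.99, adjusted p = 0.37). The 3 split pairs had 0.0642, 4.58 and 33 CPM, against 1.47, 2.52, 0.692, 0 and 7.24 CPM in control morulae. Pair 3 alone lay above the controls, with 53.3 and 12.8 CPM in its sisters, and without it the fitted difference was -0.04.

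At the blastocyst, Casp6 and Xiap separated the groups in opposite directions without passing the test. How many of all tested genes separated these groups in the same way was not counted. Casp6 had 87.9, 77.8 and 60.4 CPM in split blastocysts, against 43, 50.6 and 43.7 CPM in control blastocysts. Every split pair lay above every control (log2 0.72 ± 0.33, interval 0.03 to 1.41, adjusted p = 0.295). Xiap had 40.2, 19.5 and 28.6 CPM in split blastocysts, against 49.4, 46.6 and 69.1 CPM in control blastocysts. Every split pair lay below every control (log2 -0.9 ± 0.49, interval -1.91 to 0.11, adjusted p = 0.401). Between the same groups the 2 keratins of the trophectoderm list had higher means in split blastocysts, Eomes and Gata2 had lower means, and the mitochondrial share differed as given above. Their part in these values was not tested.

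The other members overlapped between the groups at the blastocyst. Casp9 had 4.16, 6.18 and 9.19 CPM in split blastocysts against 8.19, 7.88 and 16.6 CPM in control blastocysts (interval -4.19 to 2.71). Apaf1 had 8.92, 1.78 and 8.54 CPM against 14.8, 19.9 and 1.77 CPM (interval -3.87 to 2.03). Diablo was the most even member, at 13.3, 16.1 and 15 CPM in split blastocysts and 17.9, 15.8 and 18 CPM in control blastocysts (interval -1.36 to 0.92). Endog had 8.82, 9.54 and 9.11 CPM in split blastocysts, a narrow range inside that of the controls at 2.01, 6.67 and 12.3 CPM. Casp2 had 14.2, 5.97 and 8.17 CPM against 12.5, 13.1 and 4.82 CPM.

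Split blastocysts were also compared with split morulae, and the split effects of both stages with each other. In the first, 0 of 7 members passed with edgeR, where 4.17% of all genes were called, 1.22% higher and 2.95% lower. An unadjusted p under 0.05 was found for 0 of the 7 and for 3213 of the 15875 tested genes. DESeq2 (7.79% of all genes called), limma-voom (18.5%) and limma on TPM (7.32 to 10.1%) called 0 members. Casp6 averaged 75.4 ± 13.9 CPM in split blastocysts and 89 ± 16.1 CPM in split morulae (log2 -0.24 ± 0.33, adjusted p = 0.779). Casp9 had 6.51 ± 2.53 CPM in split blastocysts and 4.6 ± 2.89 CPM in split morulae (0.5 ± 1.65). In the difference of split effects, 0 of 7 passed with edgeR, where 1.64% of all genes were called, 1.37% upward and 0.265% downward. DESeq2 (4.08% of all genes called), limma-voom (1.17%) and limma on TPM (0.461 to 0.91%) called 0 members. With edgeR Casp6 had an unadjusted p of 0.0207 (log2 1.11 ± 0.44, adjusted p = 0.238). Of the 15875 tested genes 2272 had an unadjusted p under 0.05 for this difference. For Xiap that difference was -1.29 ± 0.65 (adjusted p = 0.371). The comparisons share groups, so they are not independent of each other.

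In the order of group means by CPM, neighbouring groups differed beyond the range of their units in 1 place among the 8 members. The same was not counted over all tested genes, so this number has nothing to be set against. That was Casp6, whose order was 8-cell, control morula, split morula, split blastocyst and control blastocyst, with the last pair apart. Xiap ran from 8-cell embryos (75.3 ± 26.7 CPM) over control blastocysts (55 ± 12.3), split morulae (34.6 ± 14.2) and split blastocysts (29.4 ± 10.4) to control morulae (26.4 ± 14.7). On the TPM scale control blastocysts stood above 8-cell embryos for Xiap. Apaf1 ran from 8-cell embryos over split morulae, control blastocysts and split blastocysts to control morulae. Casp9 and Casp2 both ran from control blastocysts over split blastocysts, split morulae and control morulae to 8-cell embryos. Endog ran from 8-cell embryos over split morulae, split blastocysts and control morulae to control blastocysts. Diablo had the closest means, between 13.4 ± 6.18 CPM in control morulae and 17.2 ± 1.27 CPM in control blastocysts.

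Sister embryos, which share a two-cell embryo, offered a measure of spread for each member within a split group. Differences are absolute differences of log2(CPM + 1). For Casp6 the sisters of the 3 split morula pairs differed by 0.09 to 0.43, against 0.05 to 0.75 in the 12 pairs of non-sisters. For Casp2 the sisters of split morulae differed by 2.27 to 4.73. Its read counts in the 3 pairs were 231 and 28, 1 and 488, and 0 and 145. Casp9 had 0 and 117, 209 and 76, and 0 and 76 reads in the same embryos. Casp2 and Casp9 were thus each at 0 or 1 read in 1 sister and well represented in the other in 2 of 3 pairs.

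In split blastocysts no such gap was seen for Casp9, whose sisters differed by 0.51 to 0.88. Diablo sisters differed by at most 0.29 in split blastocysts. The median sister difference was below the median non-sister difference for 4 of 7 members in split morulae and 5 of 7 in split blastocysts. Over all tested genes this held for 40.6% in split morulae and 47.2% in split blastocysts. Genes with equal medians, such as 0 in both, fall outside these shares, and their number was not recorded. The remaining genes are therefore not all genes with larger sister differences. The median over genes of these differences was smaller for sisters than for non-sisters (0.49 against 0.74 in split morulae and 0.42 against 0.54 in split blastocysts). With 3 sister pairs a group these values are a description.

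**Figure D4:**
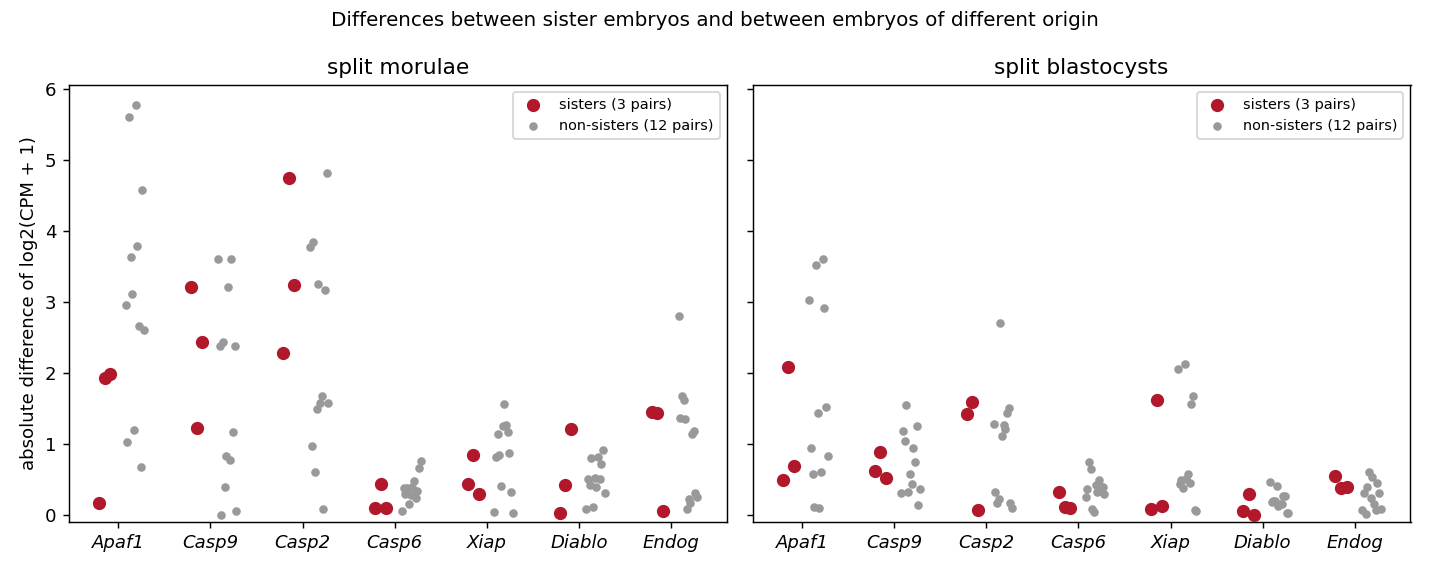
Absolute differences of log2(CPM + 1) between 2 split embryos, for sisters (red, 3 pairs) and for embryos of different two-cell embryos (grey, 12 pairs), at the morula and the blastocyst. Sisters of split morulae differ most for Casp2 (up to 4.73) and least for Casp6 (up to 0.43).

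Over the 18 units, members did not form 1 common pattern. The highest Pearson correlation of log2 CPM between 2 members was 0.61 (Apaf1 and Diablo), and the lowest was -0.8 (Casp6 and Casp9). These values rest on units that share stage and depth within groups. Among 6359 or 6360 well-expressed genes, the profiles most like that of Casp6 were Llph (r = 0.91), Mycbp and Nip7 (both 0.88). Those most like Casp9 were Traf7, Ccm2 and Gak (0.85 each), and those most like Apaf1 were Baz1b (0.88), Rc3h2 and Kdm4c (both 0.83). Xiap was followed by Smc1a (0.85), Phf14 and Rnf40 (both 0.84), and Diablo by Glce (0.9), Ccnk (0.84) and Trim25 (0.82). For Casp2 they were Lgals3 (0.8), Cyhr1 (0.76) and Ttc13 (0.72), and for Endog Ago4 (0.79), Ctnnal1 (0.78) and Rabep1 (0.77).

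Other genes of the pathway were taken from 5 lists with 41 genes, of which 35 passed the filter. In control morulae against 8-cell embryos 7 rose and 1 fell, which is 22.9% called beside 24.9% of all genes, with a list median of 0.35. The falling gene was Casp8ap2, a protein named for caspase-8 and known for histone gene expression. It was at 52.3 ± 9.47 CPM in control morulae and 296 ± 80.9 CPM in 8-cell embryos (log2 -2.5 ± 0.26, adjusted p = 5.24e-07). In the list of IAP proteins and their antagonists 3 of 7 rose. Xaf1, which binds XIAP, had 51.3 ± 26.3 CPM in control morulae and 6.39 ± 3.7 CPM in 8-cell embryos (log2 3.01 ± 0.63, adjusted p = 0.0012). Birc6, a giant IAP with ubiquitin ligase activity, had 954 ± 193 CPM in control morulae and 211.5 ± 46.2 CPM in 8-cell embryos (log2 2.17 ± 0.21, adjusted p = 1.83e-07). Birc5 (survivin), which acts mainly in mitosis, rose by log2 0.58 ± 0.17 (adjusted p = 0.0182). Its adjusted p was 0.0576 without 8-cell embryo 1 and 0.0575 without 8-cell embryo 2.

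Of 8 genes of cytochrome c and apoptosome regulation, 2 rose in control morulae, or 25% called beside 24.9% of all genes (14.3% higher). Ptma, prothymosin alpha, which restrains apoptosome formation, rose by log2 1.2 ± 0.17 (adjusted p = 1.77e-05), and Cyct, the testis form of cytochrome c, by 1.88 ± 0.68 (adjusted p = 0.0469, lost in 12 of 22 settings). Cycs, the somatic cytochrome c, was at 536 ± 66.3 CPM in control morulae and 384 ± 124 CPM in 8-cell embryos and did not pass. Of 9 caspase targets and nucleases 2 rose, or 22.2% called beside the same 24.9% of all genes. They were the phospholipid scramblase gene Xkr8 (log2 3.63 ± 1.23, adjusted p = 0.0352, lost in 7 of 22 settings) and the lysosomal nuclease gene Dnase2a (log2 3.6 ± 1.15, adjusted p = 0.0254, lost in 4).

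In control blastocysts against control morulae 2 of the 35 rose and 1 fell, or 8.57% beside 10.6% of all genes. Acin1, a nuclear caspase target, had 53.9 ± 18.4 CPM in control blastocysts and 15.3 ± 1.76 CPM in control morulae (log2 1.81 ± 0.36, adjusted p = 0.00139). Parp1, a DNA repair enzyme that executioner caspases cleave, rose by log2 0.74 ± 0.21 (adjusted p = 0.0267), and Ptma fell by 0.6 ± 0.18 on the log2 scale (adjusted p = 0.0357). The list median was -0.01. Acin1 was called in all 21 settings, Parp1 lost its call in 5 and Ptma in 14, among them all 3 TPM settings for Ptma. Leaving out control morula 3, control blastocyst 2 or control blastocyst 3 left 1 gene called, beside 9.65%, 7.15% and 6.4% of all genes.

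In split against control blastocysts 2 of the 35 fell and 0 rose, or 5.71% beside 4.74% of all genes, with a list median of 0.23. Birc6 had 571 ± 145 CPM in split blastocysts and 1199 ± 326.5 CPM in control blastocysts (log2 -1.07 ± 0.24, adjusted p = 0.0104). Rock1, a kinase that caspases activate by cleavage to drive membrane blebbing, had 97 ± 32.9 CPM in split blastocysts and 242 ± 76.7 CPM in control blastocysts (log2 -1.32 ± 0.35, adjusted p = 0.0309). With edgeR over 18 units, 0 of 35 passed between morula groups, between split blastocysts and split morulae, and in the difference of split effects. The counts with DESeq2 were 7 in split against control blastocysts, 1 in split against control morulae, 1 in split blastocysts against split morulae and 0 in the difference. In the same order DESeq2 called 6.13%, 3.5%, 7.79% and 4.08% of all genes. In split blastocysts against split morulae 6 genes were called with limma-voom, 3 with sisters entered as separate samples and 1 or 2 on TPM. Of all genes 18.5%, 14.1% and 7.32 to 10.1% were called in these settings. Both calls between blastocyst groups were lost without split pair 1, without split pair 3 or without control blastocyst 1, where Birc6 had adjusted p = 0.0729, 0.0718 and 0.0965, and that of Rock1 was also lost without control blastocyst 2 (adjusted p = 0.182).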

How the data were processed

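The authors deposited raw read counts per gene symbol and TPM values of the genes with at least 10 counts in at least 3 libraries. Per the submitters' processing notes the tools were FastQC, MultiQC, cutadapt, HISAT2, featureCounts and edgeR with build GRCm39. Versions, annotation release, strand setting and the handling of reads with several matches are not given in the sources used here. No 2 count columns were identical. Sister counts were summed (18 units). Genes passing filterByExpr were scaled by TMM and tested with edgeR's quasi-likelihood test (robust, 5 groups in 1 fit, two-sided), with Benjamini-Hochberg adjustment over 15875 genes and calls at an adjusted p under 0.05. Standard errors are the log2 fold change over the root of F. Floors of counts cover counting error only, since no molecular identifiers were used. The 95% intervals of log2 fold changes are built from these standard errors and include the spread between units. Alternatives were DESeq2, limma on TPM and on voom values, other scalings, filters and units, a replicate block, and each unit left out in turn. The same settings were applied to the pathway genes, chosen after seeing the data.

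By rule the text names all members, called genes of the pathway lists (at most 6 a list and comparison) and the 3 most correlated genes of each member. Marker genes are named from their lists, and pathway genes that edgeR did not call were chosen after their values were seen. The members, lists and tests were chosen with earlier results of these data known. Software used here was edgeR 4.0.16 with limma 3.58.1, and DESeq2 1.42.0, under R 4.3.3. Single results of some list genes are not reported here.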

Additional observations from a re-analysis of the deposited data

Results flagged for a closer look

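A test of the gap between an extreme embryo and its nearest neighbour was run on 30 sets. Each set was 1 member in 1 group of 4 to 6 embryos, and 6 values stood apart, each the highest of its group. The nominal rate of the test, about 1 in 20 groups, assumes independent and normally distributed values. Split groups hold sisters, and some sets had reads in 1 embryo only. The 6 values can therefore not be set against that rate. Apaf1 in 1 split morula (pair 3, blastomere 1) was at 53.3 CPM, with the next embryo of the group at 12.8 CPM. Endog in another split morula (pair 2, blastomere 1) was at 24.4 CPM, the next at 10.6 CPM. Casp2 in a split blastocyst (pair 1, blastomere 2) was at 20.5 CPM, the next at 8.99 CPM. Diablo in 8-cell embryo 4 was at 21.2 CPM, the next at 15.2 CPM.

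Casp8 stood apart in 2 groups because every other embryo had 0 reads. It was at 3.79 CPM (81 reads) in a split blastocyst (pair 3, blastomere 1) and at 0.391 CPM (6 reads) in control morula 2.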

How the results depend on the processing

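Each comparison was repeated in 13 other settings and with each of its units left out. No member was called in any setting of the 3 comparisons that set split embryos against control embryos or against each other by stage, nor in the difference of split effects. In control morulae against 8-cell embryos, 2 members were called, 1 without a filter on low counts, 3 with DESeq2, and 2 with each unit left out. In the same order 24.9%, 14.9%, 21.8% and 20.9 to 23.3% of all genes were called. In control blastocysts against control morulae, 1 member was called, 0 with limma-voom, and 2 in each of the 3 TPM settings (Casp9 and Xiap, not Casp6). In the same order 10.6%, 8.25% and 17.8 to 25.1% of all genes were called. With each unit left out it was 1 member throughout, beside 6.28 to 9.65% of all genes. With the replicate block the members called in these comparisons stayed at 2 and 1, beside 20.5% and 8.33% of all genes. The number pairs nothing in the labels, and deviations of same-numbered units correlated by -0.033 to 0.085. Without split morula pair 3 the Apaf1 difference from control morulae was -0.04 in place of 2.39. The cause of these changes was not tested.

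The counts of all called genes moved more. In control morulae against 8-cell embryos they were 3079 to 5198 (3960), in split against control morulae they were 4 to 834 (20 as reported), in split against control blastocysts 408 to 2037 (752), in control blastocysts against control morulae 1083 to 3520 (1680), in split blastocysts against split morulae 292 to 2903 (662) and in the difference of split effects 72 to 973 (260). In control blastocysts against control morulae the share of higher genes among calls was 29.5%, 41.5% with DESeq2, 54.4% with limma-voom and 71 to 76.2% on TPM, whose median over all genes was 0.37 to 0.63. Relative to that median Casp6 was at -1.46 to -1.18. Pathway genes called in split against control blastocysts were 0 to 7 (2 as reported), and in split blastocysts against split morulae 0 to 6 (0 as reported). Over the same settings 2.37 to 15.7% and 1.71 to 18.5% of all genes were called. Casp8 had too few reads to be tested.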

Other observations

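The genes below are from the pathway lists and were chosen after their values were seen. Cflar, the decoy partner of caspase-8, had 8.48 ± 1.34 CPM in split morulae and 25.6 ± 12.4 CPM in control morulae (log2 -1.59 ± 0.53, edgeR's quasi-likelihood test, adjusted p = 0.219, unadjusted p = 0.00687). At the blastocyst it had 5.62 ± 1.27 CPM in split embryos and 22.1 ± 3.14 CPM in controls (log2 -1.97 ± 0.58, adjusted p = 0.0528). The DESeq2 test called it at both stages (adjusted p = 0.00274 and 0.000176), and in split against control blastocysts 7 of 19 settings did. It thus had lower means in split embryos at both stages, in embryos nearly free of Casp8 reads, without passing in the edgeR fit reported. At the blastocyst other edgeR fits did call it. They were those with DESeq2 size factors (adjusted p = 0.0495), sisters as separate samples (adjusted p = 0.0467) and only the groups compared (adjusted p = 0.00782).

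Htra2, a mitochondrial protease that can bind XIAP, had 39.5 ± 10 CPM in split blastocysts and 6.93 ± 6.35 CPM in control blastocysts (log2 2.51 ± 1.23, edgeR, adjusted p = 0.342). Of 19 settings 1 called it, the fit of only the groups compared (log2 2.44, adjusted p = 0.0257).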
